A study of Mus musculus with 6 samples.

Results

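Endothelial wells of mouse kidney that held Ehd3 transcripts, with little Plvap and without Sele, were described across healthy kidneys and kidneys with an obstructed ureter. A well was chosen when its label gave the endothelia gate, when it held at least 1000 genes and 20000 reads on genes, and when it had Ehd3 of at least 100 reads per 1000000 reads on genes (CPM), Plvap under 200 CPM and Sele under 100 CPM. Wells with both Apln of at least 50 CPM and Esm1 of at least 100 CPM were left out. The choice kept 467 of 1129 endothelia-gate wells, in a series of 2235 wells of both gates past the same minimum. The wells came from 6 plates, which gave 96, 92, 105, 60, 58 and 56 of them.

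Cells were sorted from digested kidneys and read with Smart-seq2, a plate method that sequences whole transcripts of 1 cell per well. Each plate mixed 3 mice, 1 healthy, 1 at day 2 and 1 at day 10 of unilateral ureteric obstruction (UUO), an injury in which blocked urine flow damages the tubules and leads to fibrosis. The well labels also carry a number from 1 to 4, taken here as the mouse of its condition, and counts were summed over the wells of a condition and number, so that each condition has n = 4. Number 1 filled plates 1 and 2, number 2 plate 3, number 3 plate 4 and number 4 plates 5 and 6, so number and plate cannot be told apart and the labels do not state that a number is 1 mouse. The labels give no strain, age or sex, the healthy mice are described only as healthy, and a condition always filled the same plate columns, so condition and column cannot be told apart. Healthy sums 1 to 4 held 86, 35, 18 and 45 wells, day 2 sums 47, 35, 14 and 25 wells, and day 10 sums 55, 35, 28 and 44 wells.

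Glomerular endothelial cells line the capillary tuft in which blood is filtered. They are thin, pierced by open fenestrae, coated by a glycocalyx, and share a basement membrane with the podocytes, whose VEGF they depend on through the receptor Kdr. Unlike the fenestrated capillaries around the tubules, adult glomerular capillaries largely lack the diaphragm protein Plvap. Ehd3, an EH-domain protein of membrane recycling, is a known marker of these cells in the mouse kidney. Gata5 is a zinc-finger transcription factor of endothelium, Pi16 is a peptidase inhibitor family member, and Cyp26b1 is an enzyme that breaks down retinoic acid.

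Promoter windows are shown for Ehd3, the gene that chose the wells, and Pi16, the marker whose level passed a test between conditions. Both run from 250 bases before to 50 bases after a start given by RefSeq on GRCm38.p6. Another annotation, GENCODE, starts both genes further upstream, so these windows lie within its gene spans. The Ehd3 window lies at chr17:73804591-73804890 on the plus strand and the Pi16 window at chr17:29318632-29318931 on the plus strand.
Ehd3: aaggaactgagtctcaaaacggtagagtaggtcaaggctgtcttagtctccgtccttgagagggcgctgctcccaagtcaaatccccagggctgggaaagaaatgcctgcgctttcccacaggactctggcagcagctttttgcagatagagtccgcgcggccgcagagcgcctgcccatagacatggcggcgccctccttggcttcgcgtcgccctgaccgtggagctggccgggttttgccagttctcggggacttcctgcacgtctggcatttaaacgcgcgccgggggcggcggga
Pi16: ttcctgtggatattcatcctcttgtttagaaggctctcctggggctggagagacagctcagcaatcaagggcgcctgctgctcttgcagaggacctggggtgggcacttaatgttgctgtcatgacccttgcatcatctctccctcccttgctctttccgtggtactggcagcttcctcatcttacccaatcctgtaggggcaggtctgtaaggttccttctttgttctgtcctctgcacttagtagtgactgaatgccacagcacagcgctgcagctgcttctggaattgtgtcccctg
Of the GATA letters only AGATAA and TGATAA were searched, on both strands, and neither was found in these windows. The windows of Gata5 (chr2:180334630-180334929, minus strand) and Cyp26b1 (chr6:84593761-84594060, minus strand) held neither. Of 32851 promoter windows of 300 bases, 18.6% held at least 1 of them. The GATA forms that end in G, AGATAG and TGATAG, were not part of the search, and the printed Ehd3 window holds AGATAG. These are letter matches in 1 window per gene and say nothing about binding.

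The limits on expression fixed the levels of Ehd3, Plvap, Sele, Apln and Esm1, which are given as description. Among endothelia-gate wells 749 had Ehd3 of at least 100 CPM. Of these, 113 were left out for Plvap, a further 125 for Sele and a further 44 for Apln with Esm1. The lowest Ehd3 among the chosen wells was 130.5 CPM and the highest below the limit was 89.3 CPM. For Plvap the nearest values inside and outside were 199.5 and 212.8 CPM, and for Sele 81.2 and 100.9 CPM. Near the Ehd3 limit stood 1 chosen well under 150 CPM and 7 otherwise fitting wells from 50 to 100 CPM. Near the Plvap limit stood 12 chosen wells from 100 to 200 CPM and 6 others from 200 to 300 CPM, and near the Sele limit 10 chosen wells from 50 to 100 CPM and 15 others from 100 to 150 CPM.

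The steps did not remove wells evenly over time. Sele took out 17 healthy, 68 day 2 and 40 day 10 wells, and Apln with Esm1 took out 0 healthy, 1 day 2 and 43 day 10 wells. The chosen wells were 184 of 380 healthy endothelia-gate wells (48.4%, 95% exact binomial interval 43.3 to 53.6%), 121 of 368 at day 2 (32.9%, 28.1 to 37.9%) and 162 of 381 at day 10 (42.5%, 37.5 to 47.7%). By number the share was 68.3, 54.7, 28.1 and 35.7% in healthy mice, 41.2, 55.6, 21.9 and 19.7% at day 2 and 43.3, 54.7, 43.8 and 34.9% at day 10. The 3 ranges overlapped. With Sele-positive wells kept, the mean share over numbers was 51.6% in healthy mice, 54.2% at day 2 and 53.2% at day 10. Sort and digestion set how many cells of a kind reach a plate, so these are shares of sorted wells.

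**Figure D1:**
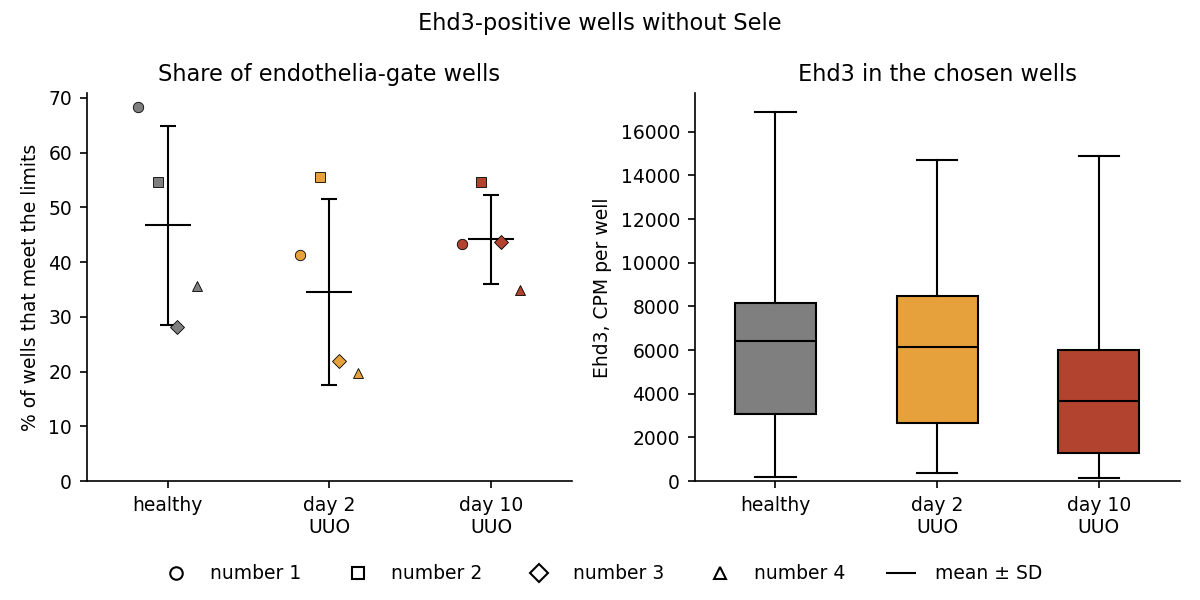
Left, percent of endothelia-gate wells that met the expression limits, 1 point per number and condition, with mean and SD over 4 numbers. Right, Ehd3 in the chosen wells in CPM per well, with box at the quartiles, line at the median and whiskers at the lowest and highest well. The median was 6417 CPM in healthy, 6138 CPM in day 2 and 3650 CPM in day 10 wells.

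The label of glomerular endothelium was checked against the other 3 markers and general endothelial genes. Pi16 reached 100 CPM in 92.9% of healthy, 88.4% of day 2 and 71.6% of day 10 wells. Gata5 reached it in 45.1% of healthy, 53.7% of day 2 and 36.4% of day 10 wells, and Cyp26b1 in 56.0%, 25.6% and 31.5%. The endothelial adhesion molecule Pecam1 reached 100 CPM in 96.7%, 99.2% and 98.2% and Kdr in 93.5%, 95.9% and 96.9%. Plat, which encodes tissue plasminogen activator, reached it in 97.8%, 98.3% and 98.8%. Lpl and Smad6, also listed for glomerular endothelium, were found in fewer wells. The lipase gene Lpl reached 100 CPM in 73.4%, 86.0% and 48.1%, and Smad6, an inhibitor of BMP signalling, in 34.2%, 27.3% and 38.3%. Sost and Mapt, listed as well, are not shown. Pi16, Plat and the general endothelial genes were thus present in most wells, and Gata5, Cyp26b1, Lpl and Smad6 in a smaller share.

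A minority with low Ehd3 looked different. Ehd3 was under 1000 CPM in 21 healthy wells (8, 8, 1 and 4 by number), 10 day 2 wells (4, 2, 1 and 3) and 32 day 10 wells (13, 4, 7 and 8). The 21 healthy wells averaged 5286 CPM of the water channel Aqp1, 1880 CPM of the elastic fibre protein Fbln5, 1436 CPM of Calca and 835 CPM of the arterial transcription factor Sox17, but medians were far lower, with 9.26 CPM of Aqp1 and 0 CPM of Calca. Of these 21 wells, 9 reached 100 CPM of Aqp1 and 6 reached 100 CPM of Calca. The 163 healthy wells of higher Ehd3 averaged 96.5 CPM of Aqp1, 170 CPM of Fbln5, 46.0 CPM of Calca and 266 CPM of Sox17. Kdr averaged 596 CPM in the low healthy wells and 2585 CPM in the others. At day 2 the 10 low wells averaged 1.61 CPM of Aqp1 and 2.00 CPM of Fbln5. At day 10 the 32 low wells averaged 10.8 CPM of Aqp1 and 461 CPM of Fbln5, with 9164 CPM of the sialomucin Emcn. Igfbp3, of the list for peritubular capillaries (those around the tubules), averaged 1563 CPM in these 32 wells (median 1.98 CPM). In the 130 other day 10 wells it averaged 127 CPM. Low and other wells averaged 582 and 29.7 CPM of Igfbp3 in healthy kidneys, and 3.50 and 49.9 CPM at day 2. Igfbp3 reached 100 CPM in 12 of the 32 and 12 of the 130 day 10 wells, and in 6 of the 21 and 8 of the 163 healthy wells. In healthy kidneys Sox17 reached 100 CPM in 15 of the 21 low wells and in 100 of the 163 others, so it was common in both. Fbln5 reached it in 14 of the 21 and 40 of the 163 wells, and Aqp1 in 9 and 26. Some low-Ehd3 wells of healthy kidneys therefore held genes of the arterial and vasa recta lists, and some of healthy and day 10 kidneys held Igfbp3. The presence of Sox17 was not particular to them.

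Esm1, a secreted proteoglycan of endothelial tip cells, was found more often at day 10 even though wells with Apln beside it had been removed. At least 100 CPM of Esm1 was present in 16 of 184 healthy wells (8.70%), 16 of 121 day 2 wells (13.2%) and 72 of 162 day 10 wells (44.4%). Wells are not replicates of a condition. By number these were 7, 4, 1 and 4 healthy wells and 5, 2, 3 and 6 day 2 wells. In the day 10 group the 72 wells came from all numbers, with 24, 13, 10 and 25 wells. Summed levels were 89.9, 124, 34.1 and 62.0 CPM in healthy sums, 166, 41.1, 348 and 145 CPM in day 2 sums and 1310, 1580, 2186 and 2081 CPM in day 10 sums. Every day 10 sum stood above every healthy sum, as it did for 3.02% of all genes tested. Esm1 was part of the choice of wells and was not tested.

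The genes that varied most like Ehd3 were taken from all 380 healthy endothelia-gate wells by Spearman's rho over 9344 genes. They were Ppap2a (rho 0.71), a lipid phosphatase, Plat (0.69), the VEGF co-receptor Nrp1 (0.68), Cyp4b1 (0.65), Emcn (0.64), the lipase Lpl (0.63), Kdr (0.62) and Igfbp5 (0.61). Within the 184 chosen healthy wells the same genes had a rho from 0.23 (Plat and Emcn) to 0.46 (Ppap2a). These wells share plates and depth, and the values are a description of likeness only.

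Of 380 endothelia-gate wells with Ehd3 under 100 CPM, 165 had Plvap of at least 200 CPM and passed the other limits. The chosen wells were set beside these 165 Plvap-positive wells, which carry the peritubular capillary marker and are not all of the rest. Only numbers with at least 10 such wells were summed, which left 7 sums. Among genes with a healthy mean of at least 50 CPM in the chosen wells, 67 of 4056 (1.65%) were higher in each of the 12 sums than in each of the 7 Plvap-positive sums. In the other direction 43 of 4287 genes (1%) with a healthy mean of at least 50 CPM in Plvap-positive wells were lower in every sum. The 2 classes were made by expression limits, so these counts carry no test.

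Gata5 was among the clearest of these differences. It ranged from 110 to 473 CPM over the 12 sums and from 0 to 0.425 CPM over the 7 Plvap-positive sums, where 3 healthy sums had no read. Lpl ranged from 336 to 2393 CPM against 0.142 to 10.2 CPM. The extracellular matrix gene Olfml2b averaged 299.8 CPM in healthy chosen wells and 2.12 CPM in healthy Plvap-positive wells. The kinase gene Nuak2 averaged 169.9 and 0.597 CPM, the non-coding RNA Meg3 104.3 and 0.124 CPM, and the inducible nitric oxide synthase Nos2 59.9 and 1.13 CPM in the same classes. Mob3c, Erc2, Enc1, Fhl1 and Casc4 were also among the 12 leading genes, as was Ehd3 by the choice of wells.

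Among the genes that were low in the chosen wells, Npr3, the natriuretic peptide clearance receptor, averaged 0.181 CPM in healthy sums, against 183 CPM in Plvap-positive sums. The secreted hormone Stc1 averaged 2.33 CPM against 181 CPM, and Rgcc, a cell cycle regulator, 13.1 CPM against 527 CPM. Cd93, an endothelial lectin-like receptor, averaged 124 CPM against 1084 CPM, and Igfbp7 135 CPM against 1152 CPM. Rab11fip5, Thsd7a, Car7, Slc12a7, Eps8l2 and Thbs2 were also among the 12 leading genes, as was Plvap by the choice of wells.

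At day 2 of obstruction 6 genes rose and 0 fell in the chosen wells, of 11837 genes tested (0.0507%, edgeR quasi-likelihood F test with Benjamini-Hochberg adjusted p under 0.05). The 6 were Lrg1, Stat3, Slco2a1, Emilin1, Tmem176b and Tnfaip8l1, and 818 genes had an unadjusted p under 0.05. For each of the 6, every day 2 sum was above every healthy sum. Values here and below are CPM of sums scaled by TMM, and changes are log2 fold changes with their SE.

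Lrg1, a secreted leucine-rich glycoprotein that modulates TGF-beta signalling in endothelium, had 345, 321, 413 and 343 CPM in day 2 sums, against 42.1, 42.9, 27.8 and 54.2 CPM in healthy sums. Its log2 change was 3.05 ± 0.37 (adjusted p = 0.0234). At least 100 CPM was found in 58.7% of day 2 wells and in 13.6% of healthy wells, so more wells carried it. Stat3, the transcription factor that signals for IL-6 family receptors, had 473, 572, 396 and 432 CPM at day 2, against 208, 259, 143 and 202 CPM in healthy sums (log2 change 1.23 ± 0.15, adjusted p = 0.0234). Both genes belong to the list of IL-6 family and acute phase genes, of which 2 rose, 0 fell and 12 did not pass, of 14 tested. The list's median log2 change was 1.16, beside -0.07 over all genes tested. This list was drawn up with earlier results of these data known.

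Other members of that list had higher values at day 2 but did not pass the test. The LIF receptor Lifr had 4021, 3480, 3443 and 3388 CPM in day 2 sums, against 2139, 1879, 1200 and 1689 CPM in healthy sums (adjusted p = 0.0524). Serpina3n, an acute phase protease inhibitor, had 15.7, 103, 265 and 813 CPM at day 2, against 0.0321, 0.0772, 0 and 0.0611 CPM in healthy sums (adjusted p = 0.0524). It reached 100 CPM in 18 of 121 day 2 wells and 0 of 184 healthy wells, and 39.0% of its day 2 signal lay in 1 well. Socs3, the feedback inhibitor of this pathway, had 1839, 3013, 2135 and 2331 CPM at day 2, against 930, 270, 1036 and 729 CPM in healthy sums (adjusted p = 0.158). Every day 2 sum was above every healthy sum for these 3 genes, as it was for 1.94% of all genes tested, and every day 2 sum was below every healthy sum for 2.48%. Serpina3n shares sequence with other Serpina3 copies, so its reads may be divided among them.

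Slco2a1, the prostaglandin transporter, had 1467, 1367, 1160 and 1571 CPM in day 2 sums, against 662, 516, 549 and 648 CPM in healthy sums (log2 change 1.23 ± 0.15, adjusted p = 0.0234). Emilin1, a glycoprotein of elastic fibres, had 639, 716, 937 and 715 CPM against 301, 179, 276 and 178 CPM (log2 change 1.74 ± 0.23, adjusted p = 0.0234). Tmem176b, a membrane protein, had 2729, 2477, 3951 and 2983 CPM against 1336, 1171, 1365 and 1312 CPM (log2 change 1.21 ± 0.13, adjusted p = 0.0202). The spread between mice was small beside these changes. Tnfaip8l1, of the TNFAIP8 family, had lower levels, 77.0, 83.5, 120 and 110 CPM against 18.7, 7.95, 12.7 and 15.2 CPM (log2 change 2.91 ± 0.38, adjusted p = 0.0234). Only 23.1% of day 2 wells and 4.89% of healthy wells reached 100 CPM of it.

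**Figure D2:**
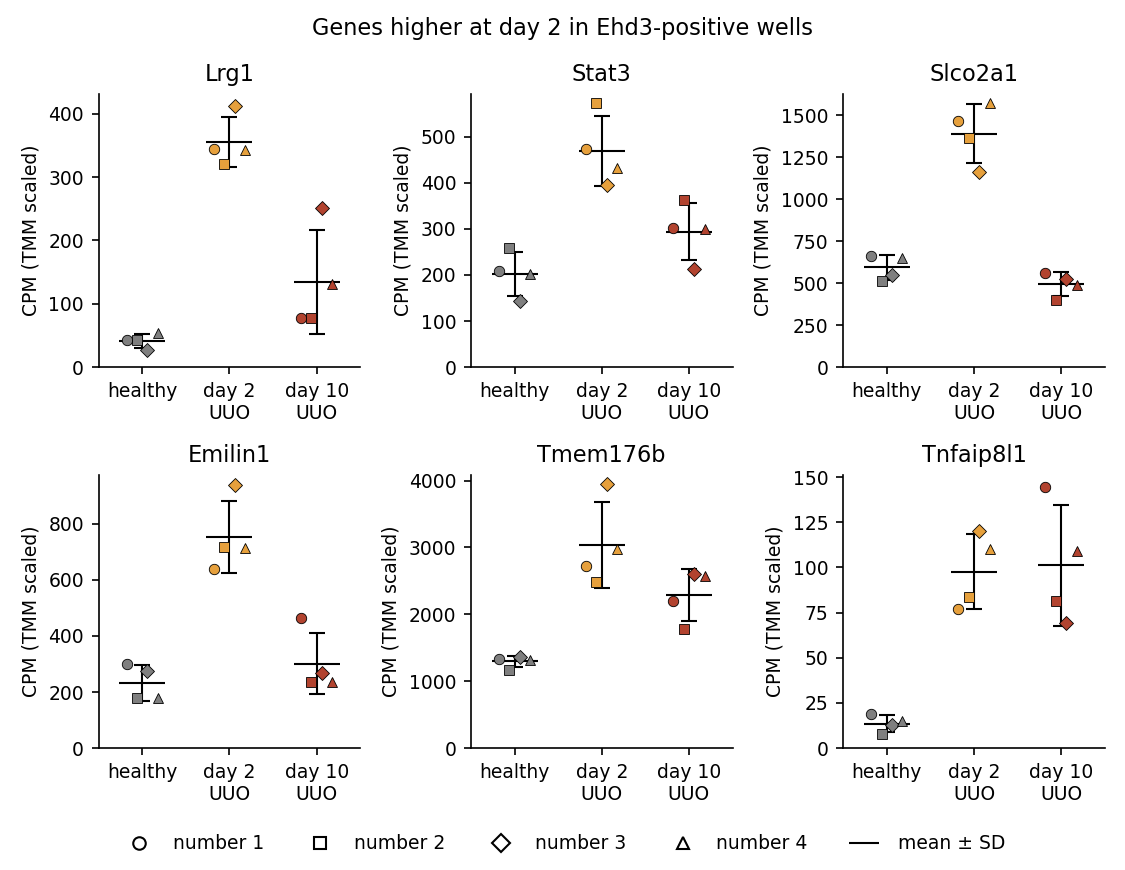
CPM (TMM scaled) of the 6 genes higher at day 2, 1 point per number and condition, with mean and SD over 4 sums. For all 6 the day 2 points lie above the healthy points. Lrg1, Slco2a1, Emilin1 and Stat3 averaged 134, 494, 300.3 and 294 CPM at day 10.

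Of the glomerular identity genes 0 of 17 were called at day 2, with a median log2 change of -0.26. Gata5 averaged 345 ± 99.9 CPM at day 2 and 277 ± 65.2 CPM in healthy sums (adjusted p = 0.918). Pi16 averaged 1413 ± 357 CPM and 1646 ± 488 CPM (adjusted p = 0.868). Cyp26b1 had 35.5, 116, 229 and 178 CPM at day 2, against 353, 530, 357 and 371 CPM in healthy sums, without overlap, but did not pass (log2 change -1.86 ± 0.64, adjusted p = 0.572). Lpl averaged 2185 ± 234 CPM at day 2 and 1077 ± 151 CPM in healthy sums, again without overlap (adjusted p = 0.141). Plat averaged 19581 ± 4624 CPM and 12783 ± 2351 CPM (adjusted p = 0.335).

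General endothelial genes did not pass the test at day 2. Kdr averaged 2562 ± 294 CPM at day 2 and 2266 ± 359 CPM in healthy sums (adjusted p = 0.912), and Pecam1 2182 ± 407 CPM and 2120 ± 437 CPM (adjusted p = 0.999). Of the pan-endothelial list 0 of 15 were called, and Cd34 came nearest with 1646 ± 172 CPM at day 2 and 913 ± 163 CPM in healthy sums (adjusted p = 0.0579). Tinagl1, a matrix glycoprotein, averaged 332 ± 71.9 CPM at day 2 and 975 ± 194 CPM in healthy sums (adjusted p = 0.0648). Ltbp4, which binds latent TGF-beta, averaged 111 ± 36.6 CPM and 471 ± 238 CPM (adjusted p = 0.0671). Smad6, an inhibitor of BMP signalling, averaged 67.8 ± 28.3 CPM and 117 ± 54.3 CPM (adjusted p = 0.707). Tfpi, the tissue factor pathway inhibitor, averaged 217 ± 28.1 CPM and 88.1 ± 35.9 CPM (adjusted p = 0.207).

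With number 1, 2 or 4 left out 0 genes were called at day 2, and with number 3 left out 1 was called, Lrg1. Without number as a block 10 genes were called, 5 of them among the 6. Without wells that carried another cell type's marker all 6 remained among 8 calls, and with Ehd3 of at least 1000 CPM 5 remained among 6.

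At day 10 of obstruction 17 genes rose and 19 fell in the chosen wells, of 11837 tested (0.304% called, 0.144% higher and 0.161% lower). Genes of glomerular identity were among those that fell, with Pi16, Tspan7 and Lpl called, and genes of capillary fatty acid uptake, Gpihbp1 and Fabp4, were among those that rose. For 802 genes the unadjusted p was under 0.05. The median log2 change over all genes tested was 0.04.

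Of 17 glomerular identity genes tested, 0 rose, 3 fell and 14 did not pass, with 14 of 17 below 0 and a median log2 change of -0.94. The list holds the 3 markers that helped to name the wells, and it was drawn up with earlier results known. Pi16 had 487, 647, 810 and 590 CPM in day 10 sums, against 1514, 1208, 2345 and 1516 CPM in healthy sums (log2 change -1.36 ± 0.15, adjusted p = 0.00802). Tspan7, a tetraspanin membrane protein, had 744, 705, 789 and 799 CPM against 1675, 1532, 1761 and 1711 CPM (log2 change -1.14 ± 0.13, adjusted p = 0.00802). Lpl, which splits triglycerides of lipoproteins, had 503, 616, 424 and 328 CPM against 975, 1002, 1031 and 1302 CPM (log2 change -1.21 ± 0.20, adjusted p = 0.0368). In all 3 the day 10 and healthy sums were apart. Lpl reached 100 CPM in 48.1% of day 10 wells and 73.4% of healthy wells.

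The other named markers were lower at day 10 but not past the threshold. Gata5 had 107, 114, 171 and 199 CPM in day 10 sums, against 222, 371, 262 and 253 CPM in healthy sums (log2 change -0.94 ± 0.23, adjusted p = 0.244). Cyp26b1 had 78.9, 13.9, 199 and 195 CPM against 353, 530, 357 and 371 CPM (log2 change -2.08 ± 0.66, adjusted p = 0.443). Ehd3 itself had 4420, 3575, 3947 and 3765 CPM against 6301, 5396, 5736 and 6370 CPM, given without a test because it chose the wells. For Gata5 and Cyp26b1 every day 10 sum was below every healthy sum, as it was for 2.68% of all genes tested, and every day 10 sum was above every healthy sum for 3.02%. Plat averaged 18330 ± 4515 CPM at day 10 and 12783 ± 2351 CPM in healthy sums (adjusted p = 0.45). Kdr averaged 2055 ± 343 CPM and 2266 ± 359 CPM (adjusted p = 0.994), and Pecam1 2552 ± 260 CPM and 2120 ± 437 CPM (adjusted p = 0.867).

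**Figure D3:**
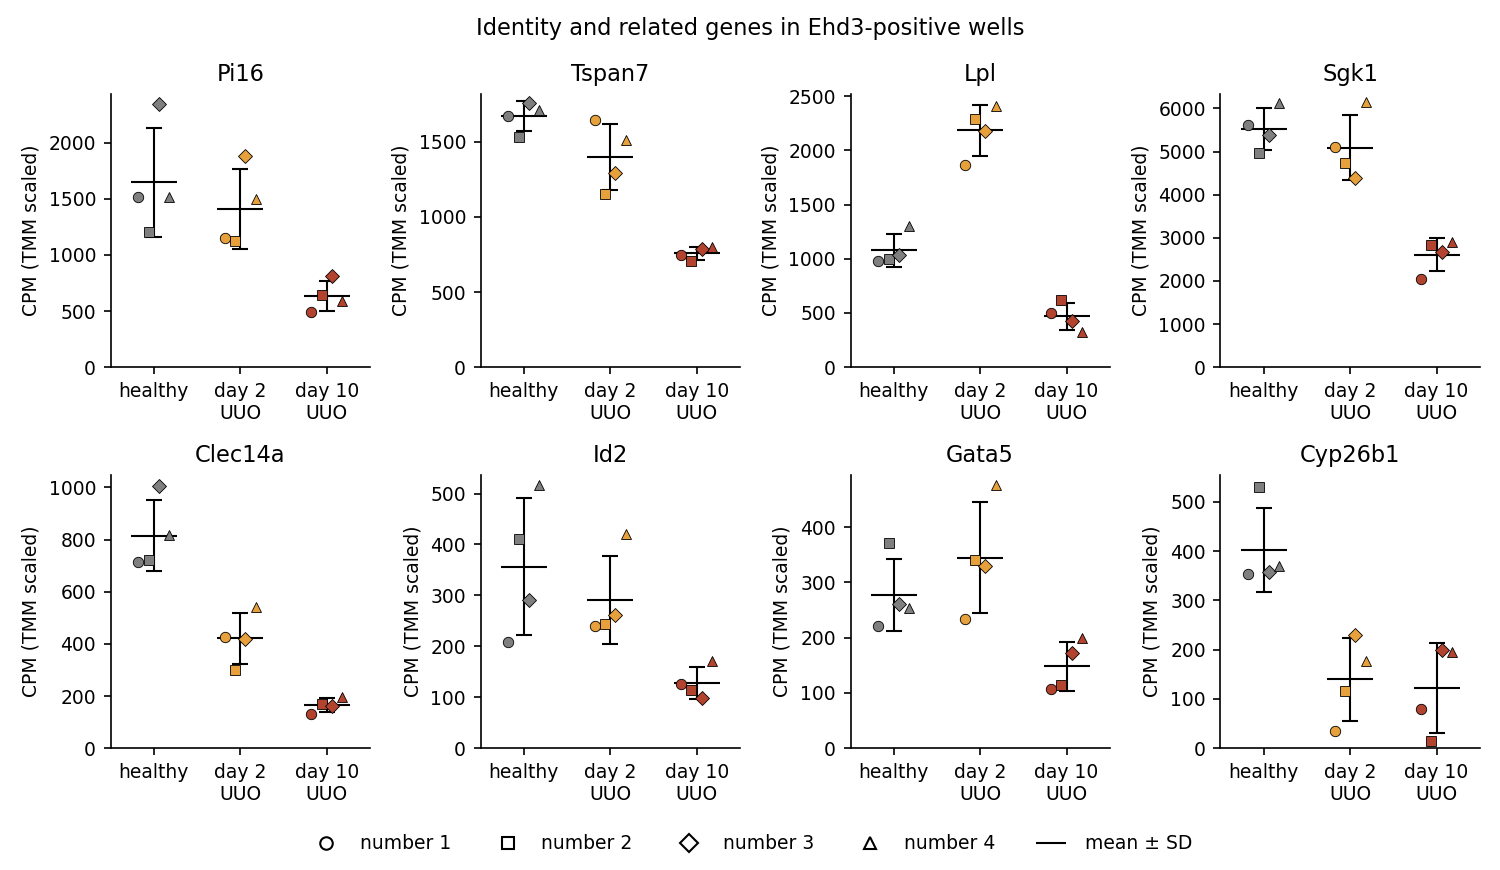
CPM (TMM scaled) of 6 genes lower at day 10 (Pi16, Tspan7, Lpl, Sgk1, Clec14a and Id2) and of the markers Gata5 and Cyp26b1, which did not pass, 1 point per number and condition with mean and SD over 4 sums. Lpl is highest at day 2, with 2185 CPM on average, and Clec14a averages 815, 421 and 165 CPM in healthy, day 2 and day 10 sums.

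Clec14a, an endothelial C-type lectin linked to vessel sprouting, had the smallest adjusted p of the day 10 comparison. It had 131, 169, 163 and 195 CPM in day 10 sums, against 715, 722, 1006 and 819 CPM in healthy sums (log2 change -2.31 ± 0.19, adjusted p = 0.00211). At least 100 CPM was found in 27.2% of day 10 wells and 69.6% of healthy wells. Sgk1, a serum and glucocorticoid regulated kinase, had 2052, 2826, 2666 and 2891 CPM against 5625, 4964, 5388 and 6124 CPM (log2 change -1.09 ± 0.13, adjusted p = 0.0107). Slc6a6, the taurine transporter, averaged 370 ± 166 CPM at day 10 and 1165 ± 166 CPM in healthy sums (adjusted p = 0.0219). Tinagl1 averaged 321 ± 110 CPM and 975 ± 194 CPM (adjusted p = 0.027). The caveola protein gene listed as Sdpr, now Cavin2, averaged 396 ± 104 CPM and 1060 ± 101 CPM (adjusted p = 0.0292).

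The remaining genes that fell had log2 changes from -0.70 (Slc9a3r2) to -2.40 (Fgfr3), apart from Umod. They were Fgfr3, a fibroblast growth factor receptor, Atp13a3, a polyamine transporter, Lrrc3b, Ankrd44, Id2, Cd97, an adhesion receptor, Rdx, which links actin to the membrane, Slc9a3r2, a scaffold protein, Dusp1, a phosphatase of MAP kinases, and Elovl5, a fatty acid elongase. The calls of Fgfr3 and Ankrd44 were lost in 14 of 20 alternatives, Elovl5 in 13, Dusp1 in 11, Slc9a3r2 in 9 and Lrrc3b in 8. That of Atp13a3 was lost in 7, those of Id2 and Rdx in 6 and that of Cd97 in 4. Umod, the tubule protein uromodulin, had 0.211, 0.0642, 0.158 and 0.265 CPM at day 10, against 1232, 23.4, 20.5 and 82.3 CPM in healthy sums (adjusted p = 0.0414). Of its healthy signal 70.6% lay in 1 well, and without number 1 its adjusted p was 0.544.

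In several lists of signalling and response genes most genes lay on 1 side of 0 at day 10 while few passed. The median log2 change over all genes tested was 0.04. Lists of other cell types were as one-sided, with 9 of 9 tubule genes and 8 of 8 mesangial and mural genes below 0. Of the NF-kB list 13 of 15 were above 0, with 0 called. In the list of genes that respond to blood flow, 11 of 11 were below 0 with a median log2 change of -1.03, and 1 fell, Pi16, which is also an identity gene. The flow-induced factor Klf2 averaged 416 ± 98.3 CPM at day 10 and 845 ± 208 CPM in healthy sums (adjusted p = 0.118), and Klf4 108 ± 38.3 CPM and 260 ± 82.9 CPM (adjusted p = 0.39). In the list of BMP and TGF-beta signalling, 15 of 18 were below 0 with a median of -0.66, and 1 fell, Id2. That target gene had 125, 115, 99.0 and 171 CPM at day 10, against 209, 411, 290 and 516 CPM in healthy sums (log2 change -1.44 ± 0.22, adjusted p = 0.0261). Id1, another target, averaged 288 ± 92.7 CPM and 818 ± 254 CPM (adjusted p = 0.114). The co-receptor Eng averaged 3076 ± 909 CPM and 4849 ± 919 CPM with overlapping sums (adjusted p = 0.145), and Smad6 108 ± 30.2 CPM and 117 ± 54.3 CPM (adjusted p = 0.999). In the list of immediate early and stress genes 14 of 16 were below 0 with a median of -0.36, and Dusp1 fell (2494 ± 810 CPM at day 10, 4628 ± 1094 CPM in healthy sums, adjusted p = 0.0494).

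Of 11 capillary lipid handling genes tested at day 10, 3 rose (Gpihbp1, Fabp4 and Scarb1), 1 fell (Lpl) and 7 did not pass, with a median log2 change of 0.85. Gpihbp1, the anchor that carries lipoprotein lipase to the capillary lumen, had 1376, 1530, 2102 and 1573 CPM in day 10 sums, against 237, 245, 589 and 254 CPM in healthy sums (log2 change 2.39 ± 0.22, adjusted p = 0.00224). Fabp4, a fatty acid binding protein, had 1808, 2468, 2791 and 1858 CPM against 344, 434, 54.1 and 238 CPM (log2 change 3.21 ± 0.49, adjusted p = 0.028). Scarb1, the HDL receptor, had 407, 441, 498 and 443 CPM against 174, 180, 293 and 140 CPM (log2 change 1.24 ± 0.21, adjusted p = 0.0494). Gpihbp1 reached 100 CPM in 84.0% of day 10 wells and 54.3% of healthy wells, and Fabp4 in 83.3% and 43.5%. Gpihbp1 also belongs to the peritubular capillary list, where it was the only call among 6 genes tested. Of these 6 genes 4 were above 0 and 2 below 0, with a median log2 change of 0.65. The call of Scarb1 was lost in 12 of 20 alternatives, also whichever number was left out (adjusted p from 0.104 to 0.453), and that of Lpl in 5, Fabp4 in 3 and Gpihbp1 in 1. The lipase fell while its anchor rose in the same sums.

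Other genes that rose at day 10 came from several groups. Cx3cl1, the membrane-bound chemokine fractalkine, had 1458, 1472, 1645 and 1138 CPM in day 10 sums, against 664, 696, 959 and 373 CPM in healthy sums (log2 change 1.14 ± 0.17, adjusted p = 0.0238). It was the only call among 10 tested chemokines and colony factors. Sparc, a collagen-binding matrix protein, had 3959, 3737, 4392 and 3076 CPM against 2373, 2176, 2148 and 1970 CPM (log2 change 0.80 ± 0.13, adjusted p = 0.0292). It was the only call among 16 basement membrane genes, of which 13 were above 0. The collagen IV chains Col4a1 and Col4a2 averaged 928 ± 156 CPM and 773 ± 156 CPM at day 10, against 487 ± 61.1 CPM and 348 ± 105 CPM in healthy sums (adjusted p = 0.171 and 0.158). Col18a1, the source of endostatin, went the other way with 97.1 ± 16.4 CPM and 244 ± 39.1 CPM (adjusted p = 0.0637).

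Apbb2, an adaptor that binds amyloid precursor protein, had 563, 606, 437 and 434 CPM at day 10, against 204, 154, 135 and 145 CPM in healthy sums (log2 change 1.68 ± 0.17, adjusted p = 0.00369). Litaf, an endosomal protein induced by lipopolysaccharide, had 1059, 1086, 1101 and 1151 CPM against 467, 305, 233 and 247 CPM (log2 change 1.86 ± 0.23, adjusted p = 0.0107). Rnd1, a small GTPase, had 318, 165, 402 and 537 CPM against 57.4, 23.6, 27.4 and 28.5 CPM (log2 change 3.35 ± 0.44, adjusted p = 0.0152). Rnd1 had the largest rise of the 17 genes. Tubb6, Uchl1, Gda, Cdc42ep3, Tnfaip8l1, Pcdh17 and Tmem176b also rose, with log2 changes from 0.80 (Tmem176b) to 3.33 (Tubb6). Of the day 10 signal of Tubb6 32.0% lay in 1 well, and 20.4% of day 10 wells reached 100 CPM of it. The calls of Tubb6 and Cdc42ep3 were each lost in 7 of 20 alternatives, as was that of Cx3cl1.

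Of 21 genes in the list of MHC and interferon response 0 were called, while 20 were above 0 with a median log2 change of 0.99. B2m, the light chain of MHC class I, averaged 6780 ± 450 CPM at day 10 and 4623 ± 365 CPM in healthy sums, without overlap (adjusted p = 0.0755). The factor Irf7 averaged 247 ± 86.4 CPM and 89.8 ± 39.7 CPM with overlapping sums (adjusted p = 0.108), and H2-D1 1455 ± 248 CPM and 1096 ± 16.9 CPM without overlap (adjusted p = 0.48). Outside that list, the interferon-induced genes Ifi44 and Ifitm3 rose, to 940 ± 190 CPM and 1966 ± 226 CPM at day 10, against 318 ± 65.0 CPM and 1083 ± 181 CPM in healthy sums (adjusted p = 0.0152 and 0.027).

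**Figure D4:**
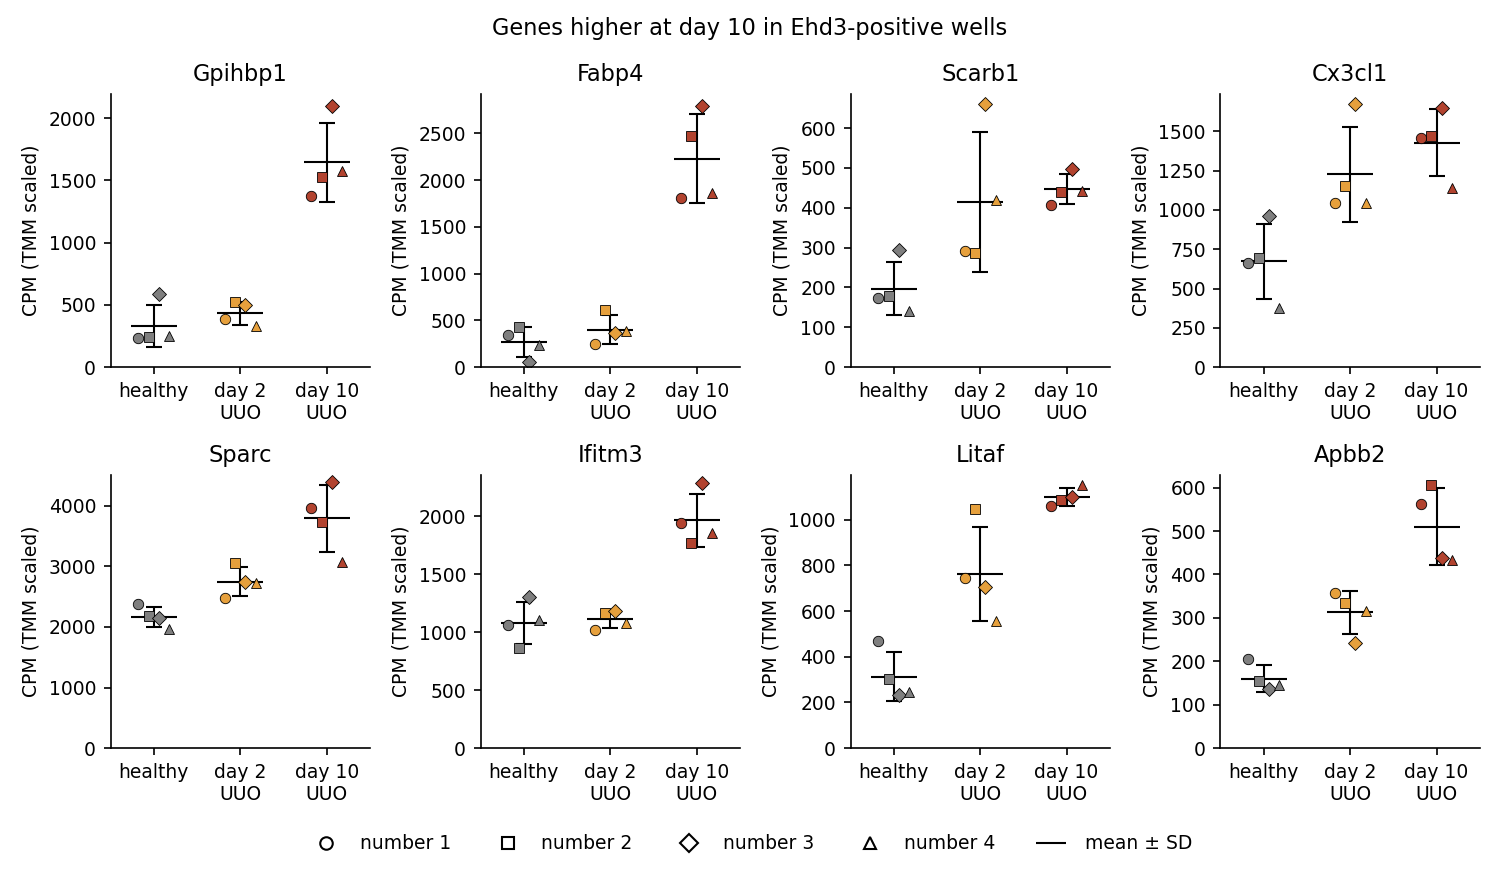
CPM (TMM scaled) of 8 genes higher at day 10, 1 point per number and condition, with mean and SD over 4 sums. Each day 10 point lies above every healthy point of its gene. Gpihbp1 and Fabp4 average 433 and 403 CPM at day 2, nearer to the healthy means of 331 and 267 CPM than to the day 10 means of 1645 and 2231 CPM.

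Genes of vessel growth and of the day 2 response were also followed at day 10. The Notch ligand Dll4 averaged 1498 ± 115 CPM at day 10 and 757 ± 144 CPM in healthy sums, without overlap (adjusted p = 0.0528), and the VEGF receptor Flt4 394 ± 47.5 CPM and 194 ± 21.0 CPM (adjusted p = 0.0691). Of the VEGF and angiopoietin list 0 of 14 were called, and of the Notch list 0 of 13. Lrg1 had 77.9, 76.8, 251 and 131 CPM at day 10, above every healthy sum, but did not pass (adjusted p = 0.193). Lifr averaged 1970 ± 453 CPM and 1727 ± 397 CPM (adjusted p = 0.976). Socs3 had 1778, 1970, 2051 and 1709 CPM at day 10, above every healthy sum (adjusted p = 0.234). Serpina3g averaged 919 ± 404 CPM and 151 ± 115 CPM (adjusted p = 0.154), Serpina3n 21.9 ± 14.6 CPM and 0.0426 ± 0.034 CPM (adjusted p = 0.103), and the NF-kB regulator Bcl3 120 ± 44.2 CPM and 26.0 ± 10.7 CPM (adjusted p = 0.0755).

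Fewer genes were called at day 10 with a number left out. With number 1, 2, 3 or 4 left out, 5, 14, 8 and 0 genes were called. Lpl missed the threshold whichever number was left out (adjusted p from 0.0708 to 0.303), Pi16 passed only without number 2, and Fabp4 only without number 3, where its log2 change was 2.62. Clec14a and Gpihbp1 passed without number 1 (adjusted p = 0.0419 for both) and missed the threshold without number 4 (adjusted p = 0.0758 and 0.0967). Among wells with Ehd3 of at least 1000 CPM 19 genes were called, all of them among the 36, and Pi16, Lpl, Clec14a, Gpihbp1 and Fabp4 had adjusted p from 0.00412 to 0.0377. Without wells of Esm1 of at least 100 CPM 17 were called, 16 of them among the 36, and the same 5 genes had adjusted p from 0.0128 to 0.0473. Apln- and Esm1-positive wells had been removed almost only from day 10, and with them kept 44 genes were called, 34 of them shared.

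Day 10 set against day 2 gave 6 calls of 11837 (0.0507%), 1 higher (0.00845%) and 5 lower (0.0422%) at day 10, with 725 genes at an unadjusted p under 0.05. Gpihbp1 was higher at day 10 (log2 change 1.92 ± 0.21, adjusted p = 0.0106). Lpl had 503, 616, 424 and 328 CPM at day 10, against 1865, 2290, 2175 and 2411 CPM at day 2 (log2 change -2.23 ± 0.20, adjusted p = 0.00496). Slco2a1 had 563, 399, 525 and 489 CPM against 1467, 1367, 1160 and 1571 CPM (log2 change -1.50 ± 0.15, adjusted p = 0.00496), so that its day 10 sums overlapped the healthy ones. Pi16 (log2 change -1.14 ± 0.15, adjusted p = 0.0381), Clec14a (-1.34 ± 0.19, adjusted p = 0.0446) and Sgk1 (-0.96 ± 0.13, adjusted p = 0.0409) were lower at day 10. All but Slco2a1 were also called at day 10 against healthy, a comparison that shares the day 10 sums.

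Whether the chosen wells responded differently from Plvap-positive wells was tested as an interaction over 16368 genes. At day 2 the difference passed for 2 genes (0.0122%), Cd300lg and Lifr, and at day 10 for 1 gene (0.00611%), Lifr. At an unadjusted p under 0.05 there were 1106 and 857 genes. The Plvap-positive wells had 3 healthy sums, 3 day 2 sums and 1 day 10 sum of 18 wells, and that lone sum has no spread of its own and is assumed to vary like the others, so the day 10 test has no replicate check in these wells.

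Cd300lg, a mucin-like receptor of capillary endothelium, had 1447, 1520, 1794 and 1601 CPM in day 2 chosen wells and 1714, 1364, 2273 and 1713 CPM in healthy chosen wells, with values scaled in this fit. In Plvap-positive wells it had 149.5, 217 and 173 CPM at day 2, against 537, 1324 and 1079 CPM in healthy sums. The difference of the log2 changes was 2.27 ± 0.27 (adjusted p = 0.00224). In the chosen wells day 2 and healthy sums overlapped, while in Plvap-positive wells they were apart. Lifr had 319, 346 and 306 CPM in day 2 Plvap-positive sums and 67.8 CPM in the day 10 sum, against 858, 434 and 523 CPM in healthy ones. In the chosen wells its day 2 sums, from 3434 to 4215 CPM, were above the healthy sums, from 1206 to 2265 CPM. The differences were 1.90 ± 0.28 at day 2 (adjusted p = 0.0205) and 3.33 ± 0.40 at day 10 (adjusted p = 0.00284).

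These differences depended on which wells stood for the rest. With all endothelia-gate wells of Ehd3 under 100 CPM as the comparison, 0 genes were called at either day, and the difference was 1.10 for Cd300lg at day 2 (adjusted p = 1), 1.86 for Lifr at day 2 (adjusted p = 0.185) and 0.68 for Lifr at day 10 (adjusted p = 1). With sums of at least 5 wells, both genes also missed the threshold at day 2 (1.94 for Cd300lg, adjusted p = 0.744, and 1.59 for Lifr, adjusted p = 0.766), and Lifr at day 10 (1.5, adjusted p = 0.696). Left-out numbers also ended the day 2 calls, for Cd300lg without number 3 or 4 (adjusted p = 0.0526 and 0.0589) and for Lifr without number 1, 2 or 4 (0.185, 0.0874 and 0.0608).

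**Figure D5:**
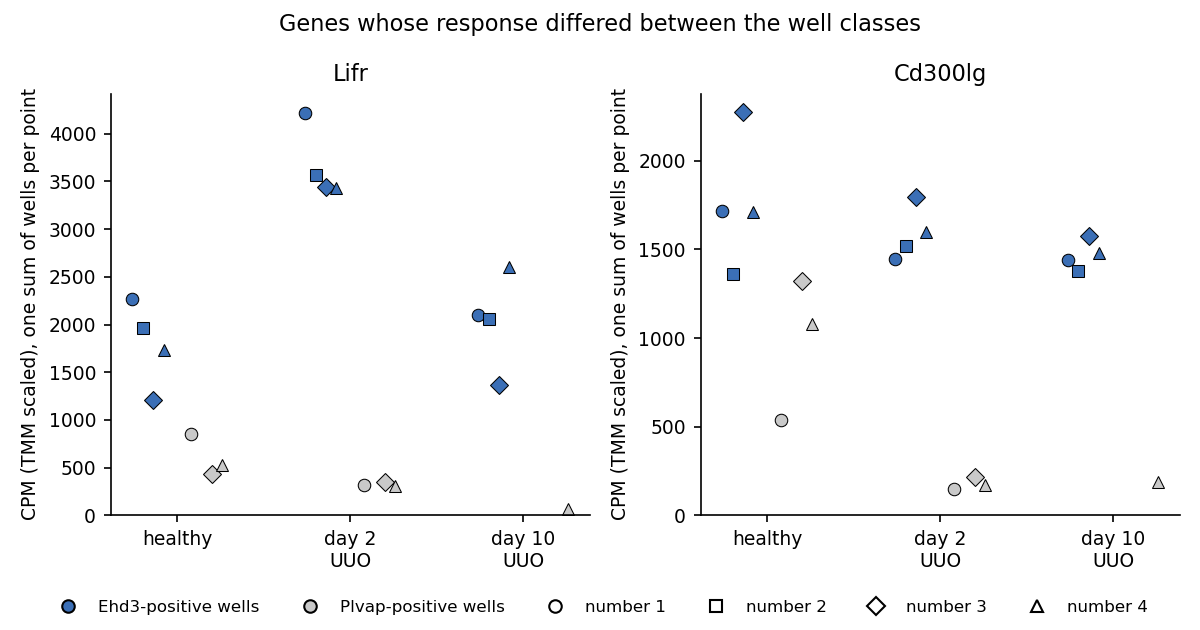
CPM (TMM scaled in the joint fit) of Lifr and Cd300lg by condition, 1 point per sum of wells, chosen Ehd3-positive wells in blue and Plvap-positive wells in grey. Plvap-positive wells have 3, 3 and 1 sums in healthy, day 2 and day 10 kidneys. Lifr runs from 3434 to 4215 CPM in the blue day 2 points and from 67.8 to 858 CPM in the grey points.

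The Ehd3-positive wells left out by the Sele limit had pooled Gata5 and Pi16 levels near those of the wells kept. Ehd3 was required of both groups. At day 2 the 121 chosen wells, pooled, gave 5860 CPM of Ehd3, 321 CPM of Gata5 and 1276 CPM of Pi16, and 68 wells with Sele gave 6701, 302 and 1260 CPM. Lrg1 was 338.5 CPM in the chosen wells and 451 CPM in the Sele wells, and Socs3 2259 and 2549 CPM. Icam1, an adhesion molecule for leukocytes, was 537 CPM in the chosen wells and 1019 CPM in the Sele wells, and the selectin Selp 7.52 and 73.4 CPM. These are pooled values of wells split by expression, with no test.

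The 43 day 10 wells removed for Apln with Esm1 had lower Pi16 and Lpl and higher Gpihbp1 and Fabp4 than the chosen wells. Ehd3 was again required of both groups. Pooled, the 162 chosen day 10 wells had 4018 CPM of Ehd3, 614 CPM of Pi16, 472 CPM of Lpl and 2047 CPM of Lifr, and the removed wells had 2683, 164, 119 and 772 CPM. Gpihbp1 was 1609 CPM in the chosen wells and 3325 CPM in the removed wells, and Fabp4 2165 and 4498 CPM. On Pi16, Lpl, Gpihbp1 and Fabp4 the removed wells lay beyond the chosen day 10 wells in the direction in which day 10 differed from healthy.

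RNA of other kidney cells moved with condition, and its part in the results was not tested. Over the sums the 12 tubule genes added to 56.9 to 1760 CPM in healthy, 268 to 715 CPM in day 2 and 18.2 to 23.7 CPM in day 10 wells, with Kap averaging 101, 22.1 and 3.71 CPM. The 7 tubule injury genes added to 3.47 to 94.1, 258 to 2237 and 1.67 to 29.9 CPM. Of these Havcr1 averaged 0, 11.2 and 0.0133 CPM. Spp1 reached at most 92.7 CPM in healthy, 2212 CPM in day 2 and 28.8 CPM in day 10 sums (adjusted p = 0.158 at day 2). Although 80.8% of its day 2 signal lay in 1 well, Spp1 was found in many day 2 wells. It reached 100 CPM in 61 of 121 day 2 wells, 10 of 184 healthy wells and 5 of 162 day 10 wells. The median well had 121.9 CPM at day 2 and 0 CPM in healthy kidneys. The 11 mesangial and mural genes added to 72.3 to 1411, 8.79 to 549 and 20.1 to 125 CPM. The 8 podocyte genes added to 83.4 to 300.4, 57.7 to 123 and 104 to 1483 CPM, the highest in day 10 number 1. The 7 leukocyte genes in the table added to 25.6 to 46.0, 0.399 to 15.2 and 23.8 to 182 CPM, and the 3 haemoglobin genes to at most 0.113 CPM.

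In all, 27 chosen wells (15 healthy, 4 day 2 and 8 day 10) passed a limit on a marker of another cell type, such as 50 CPM of Pdgfrb or Ptprc or 500 CPM of Kap. Without them 36 genes were called at day 10, 32 of them shared with the calls above. Depth was similar over time, with a median of 382190 reads on genes per healthy well, 409154 at day 2 and 452510 at day 10, and sums held from 5194795 to 30878518 reads. Fewer cells of a kind in a sum and less RNA per cell cannot be told apart in these sums.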

How the data were processed

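The deposited tables hold whole-number counts of reads per gene and well, made by the authors. STAR and mm10 are listed in the submitters' processing notes, and counter and annotation are not given in the sources used here. Entries of the same symbol were added. The chosen wells, the gene lists and the tests were selected with earlier results of these data known. Counts were summed per condition and layout number, and the p-values measure only the spread between these sums. Genes were tested with edgeR 4.0.16 (filterByExpr, TMM, quasi-likelihood F test, number as block) in R 4.3.3, with Benjamini-Hochberg adjustment over all genes. Ehd3, Plvap, Sele, Apln and Esm1 were never called. Only sums of at least 10 wells were used. Named genes were up to 10 per direction by size of change among called genes, up to 4 of smallest p per described list, and the markers. On simulated counts for day 2 against healthy, over 12774 genes, 66 of 100 genes changed by 3 on the log2 scale and 5 of 100 changed by 1 were recovered. In the same run 3 unchanged genes were called, and the simulated counts held no effect of number or plate. Alternatives were DESeq2 1.42.0, limma 3.58.1 on mean CPM per well (log2 of CPM plus 1), other filters and limits, and left-out numbers. Intervals on shares are exact binomial and cover counting error only. Gene positions are not printed. Promoters came from RefSeq on GRCm38.p6. The values of 1 marker gene are not reported here.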

Additional observations from a re-analysis of the deposited data

Results flagged for a closer look

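In 17 of 204 groups of 4 sums 1 sum stood far from the other 3, where chance flags about 1 in 20 groups. In healthy kidneys these were Lpl at 1302 CPM in number 4 (others 975 to 1031), Cyp26b1 at 529.8 CPM in number 2 (353 to 371), Fgfr3 at 178 CPM in number 2 (93.9 to 104), Rnd1 at 57.4 CPM in number 1 (23.6 to 28.5) and Umod at 1232 CPM in number 1 (20.5 to 82.3). In healthy number 3 they were Tfpi at 34.4 CPM (102 to 108), Gpihbp1 at 589 CPM (237 to 254) and Irf7 at 149 CPM (66.8 to 73.8). At day 2 they were Lifr at 4021 CPM (3388 to 3480) and Ankrd44 at 165.5 CPM in number 1, Col4a1 at 995.5 CPM in number 2 (571 to 639), Cx3cl1 at 1675 CPM (1043 to 1150) and Slc9a3r2 at 2008 CPM (1392 to 1445) in number 3, and Id2 at 421 CPM in number 4. At day 10 they were Emilin1 at 462 CPM in number 1 (236 to 267), and Serpina3n at 0.237 CPM (27.5 to 31.7) and Gda at 100.1 CPM in number 3.

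The response of the chosen wells differed from that of Plvap-positive wells by 1.90 for Lifr and 2.27 for Cd300lg at day 2 and by 3.33 for Lifr at day 10 on the log2 scale, by the interaction test, where the day 10 value has a single Plvap-positive sum. All 3 missed the threshold with sums of at least 5 wells (adjusted p = 0.766, 0.744 and 0.696) and against all wells of Ehd3 under 100 CPM (adjusted p = 0.185, 1 and 1). Outside the endothelia gate, 235 mesenchyme-gate wells met the same expression limits.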

How the results depend on the processing

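Counts of called genes depended on the tool and the filter. For day 2 against healthy, day 10 against healthy and day 10 against day 2, which had 6, 36 and 6 calls, DESeq2 called 392, 359 and 295 genes, no filter on low counts 39, 68 and 35, and sums per plate 48, 76 and 31. Sums per plate split numbers 1 and 4, which span 2 plates each. Limma on mean CPM called 26 genes at day 2 and 21 for day 10 against day 2. Keeping Sele-positive wells gave 25 and 11 in these comparisons, keeping Apln- and Esm1-positive wells 15 and 18, and stricter well quality 12 at day 2. An Ehd3 minimum of 50 CPM gave 3 calls for day 10 against day 2. In alternatives chosen after seeing the data, an Ehd3 minimum of 1000 CPM gave 19 calls at day 10, and leaving out wells with Esm1 gave 17 at day 10 and 3 for day 10 against day 2. Leaving out 1 number gave 0 to 1 calls at day 2, 0 to 14 at day 10 and 0 to 6 for day 10 against day 2. The causes were not tested.

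The difference from Plvap-positive wells, with 2 calls at day 2 and 1 at day 10, had 1456 and 1136 calls with DESeq2, 8 and 12 with no filter, 1 and 6 with sums per plate, 8 and 9 with Apln- and Esm1-positive wells, 6 and 10 with stricter quality, 14 and 50 without mixed wells, 4 and 149 with limma, 0 and 7 with sums of at least 5 wells, and 0 and 0 against all wells of Ehd3 under 100 CPM, chosen after seeing the data. With Sele-positive wells kept there were 29 at day 10. Leaving out 1 number gave 1 to 13 at day 2 and 1 to 11 at day 10, where number 4, the only Plvap-positive day 10 sum, could not be left out.

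Same-numbered sums of the 3 conditions come from the same plates. Their deviations from the condition means had correlations from -0.0258 to 0.0716. Without the replicate block 10 genes were called at day 2 (5 of the 6 shared), 29 at day 10 (24 of the 36 shared, without Ankrd44, Cx3cl1, Dusp1, Elovl5, Fgfr3, Id2, Lrrc3b, Rdx, Scarb1, Slc9a3r2, Tmem176b and Tubb6), 9 for day 10 against day 2, and 9 and 22 for the differences at day 2 and day 10.

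The mean share of wells was 54.2% at day 2 and 53.2% at day 10 with Sele-positive wells kept, and 55.0% at day 10 with Apln- and Esm1-positive wells kept. Leaving out 1 number gave 39.5 to 52.9% in healthy kidneys, 27.6 to 39.6% at day 2 and 40.7 to 47.3% at day 10. No called gene changed sign. Of genes that did not pass, Pecam1 at day 2 was -0.0378 with sums per plate, -0.001 without wells with Esm1, and from -0.0381 to 0.1369 with 1 number left out, Lifr at day 10 was -0.12 without wells with Esm1, and Smad6 at day 10 was from -0.1887 to 0.0927 with 1 number left out.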

Other observations

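Ehd3 transcripts were also found in the mesenchyme gate. Of 1106 mesenchyme-gate wells, 235 (21.2%) met the limits on Ehd3, Plvap, Sele, Apln and Esm1, with 78 healthy, 87 day 2 and 70 day 10 wells. The mural and fibroblast receptor gene Pdgfrb reached 50 CPM in 230 of them and Pecam1 in 1. The endothelia-gate wells described above had a median Ehd3 of 5283 CPM, and these wells 360 CPM, with a range from 100.7 to 3516 CPM. Pi16 reached 100 CPM in 84.4% of the endothelia-gate wells and 0.851% of these wells, Gata5 in 44.3% and 0%, and Kdr in 95.3% and 0.426%. Lpl was present in both, at 67.9% and 51.1%. These are values of wells chosen by expression, with no test.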
